A study of Mus musculus with 12 samples.

Results

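The transcripts examined here encode the cap-binding eIF4 machinery and its repressors in mouse liver. The 10 genes were listed by symbol, and 8 of them are among the 10607 genes of the deposited translation table. Eif4a1 and Eif4ebp3 are not in that table, so their footprints were not analysed here, and their transcripts were read from the input count table of 55487 genes. The group was chosen because ribosome footprints on Eif4ebp2 were higher in the knockout, so the footprint and translation values of the members are given as a description, with no test.

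Livers came from 3 wild-type (WT) mice and 3 Mettl5 knockout (KO) mice, 1 of each genotype in each of 3 litters. METTL5 is an enzyme that adds a methyl group to 1 adenosine of the 18S RNA in the small ribosomal subunit. In KO mice exon 2 of Mettl5, flanked by loxP sites, was removed throughout the animal by a Cre under the CMV promoter, so the deletion was not limited to 1 liver cell type. The line began in stem cells of a C57BL/6 and 129S6 hybrid and was bred back to B6. All 6 livers were snap-frozen and lysed in cycloheximide, which holds ribosomes on the message, and each gave 1 input library of whole-lysate RNA and 1 library of ribosome-protected fragments (RPF) from monosomes left after micrococcal nuclease, both with a single rRNA depletion. The ages and sexes of these mice are not in the labels.

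Eukaryotic mRNAs carry a 5′ cap that is bound by eIF4E. eIF4E sits on the scaffold eIF4G, which also holds the RNA helicase eIF4A, and the complex, called eIF4F, prepares the message for the small ribosomal subunit. The 4E-binding proteins (4E-BPs) compete with eIF4G for the same face of eIF4E, and the kinase complex mTORC1 releases them by phosphorylation. In liver this switch follows feeding and amino acid supply.

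The small subunit delivered by this machinery scans to the start codon, where translation begins. The letters around that codon are shown for 9 of the members. Each line gives the 12 bases before the start codon, the codon and the 9 bases after it, with capitals for the base 3 positions upstream, the start codon and the base that follows it. The sequences are from the GENCODE transcripts of GRCm38, the same assembly as mm10.
Eif4ebp1: cgtgcaggaGacATGTcggcgggc
Eif4ebp2: cgcgtcggaGccATGTccgcgtcg
Eif4e: gatcgatctAagATGGcgactgtg
Eif4g1: gcaccaaatGaaATGAacaaagct
Eif4g2: caagccgccAaaGTGGagagtgcg
Eif4a1: attctaaggAtcATGTctgcgagt
Eif4a2: ggttttcggAtcATGTctggtggc
Eif4b: ccctctcccAacATGGcggcctca
Eif4h: cggagacggCaaATGGcggacttc

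Eif4g2 begins at GTG in this annotation, and the other 8 members begin at ATG. Of those 8, 7 had A or G 3 bases upstream, compared with 86.4% of 10356 genes of the table, and 3 had G directly after the codon, compared with 53.4%. Both letters were present in Eif4e and Eif4b, 2 of the 8, against 46.1% of the genes. The windows of Eif4ebp1 and Eif4ebp2 carry G upstream and T after the codon. These matches describe letters in a window and were not tied to any measured value.

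Input libraries held 8326325 to 11825643 counted read pairs, of which 2398804 to 5121304 fell on genes of the translation table, with a median of 36 to 96 per gene. The highest of these values came from the KO liver of litter 1. No other input library exceeded 3078540 read pairs on genes of the translation table or a median of 50. RPF libraries held 4623826 to 9184242 reads on those genes, with a median of 61 to 111 per gene. Values below are normalized reads, meaning reads multiplied by 1 factor per library as deposited, and no gene length enters them unless a value is said to be per kb. The targeted gene followed the genotype: normalized Mettl5 RPF was 58.4, 47.8 and 53.1 in WT and 8.34, 5.53 and 9.56 in KO (limma log2 difference −2.64, SE 0.36, adjusted p = 0.00504). The summed input of 8 hepatocyte markers was 279132 to 376091 normalized reads, which ranked far above the 84.6 to 1578 of 5 lists for other liver cells. Among those lists, the summed level of 6 stellate cell and fibroblast markers (Lrat, Dcn, Reln, Col1a1, Col3a1 and Pdgfrb, none at 0) was 934 to 1077 in WT and 1220 to 1265 in KO and did not overlap, whereas Kupffer cell, endothelial, bile duct and blood lists overlapped between genotypes. Of single genes tested, 9.25% did not overlap in input. The sums were not tested, they weigh the most abundant genes of a list most, and the genes are not given singly. In whole liver, more cells of a type and more RNA per cell cannot be told apart.

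The 4E-BPs are the repressors of the cap-binding step, and Eif4ebp2 was the member with the largest footprint difference. Eif4ebp2 (ENSMUSG00000020091, chr10:61428491-61452661, minus strand, mm10) has a coding sequence of 360 bases and a 3′ UTR of 5309 bases in its longest annotated coding transcript. Its normalized RPF was 47.9, 74.2 and 68.1 in WT litters 1, 2 and 3, and 114.0, 121 and 124 in their KO littermates. Every KO liver was above every WT liver, and KO was higher in 3 of 3 litters. The means were 63.4 ± 13.8 in WT and 119.8 ± 5.25 in KO (SD, n = 3), a log2 difference of 0.93 (SE 0.16), or 1.91-fold on the log2(value + 1) scale. Behind these values stood 55, 87 and 132 reads in WT and 164, 197 and 130 in KO. The unscaled read counts therefore overlapped between genotypes, with 132 in WT and 130 in KO of litter 3, and the groups were apart after library scaling. This difference ranked 110th from the top of the 8994 genes tested.

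The Eif4ebp2 transcript showed no such separation. Normalized input was 1185, 1276 and 1208 in WT and 1450, 1182 and 1135 in KO, and the genotypes overlapped, with KO higher in 1 of 3 litters. The edgeR log2 difference was 0.07 (SE 0.14). Its RPF-to-input ratio was 0.0404, 0.0582 and 0.0564 in WT and 0.0786, 0.103 and 0.109 in KO, again with no overlap. Translation efficiency (TE), the change in RPF beyond that in input, thus differed by 0.90 on the log2 scale (SE 0.23). The stellate and fibroblast sum moved with genotype in the same direction, and its part in the Eif4ebp2 footprints was not tested.

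**Figure D1:**
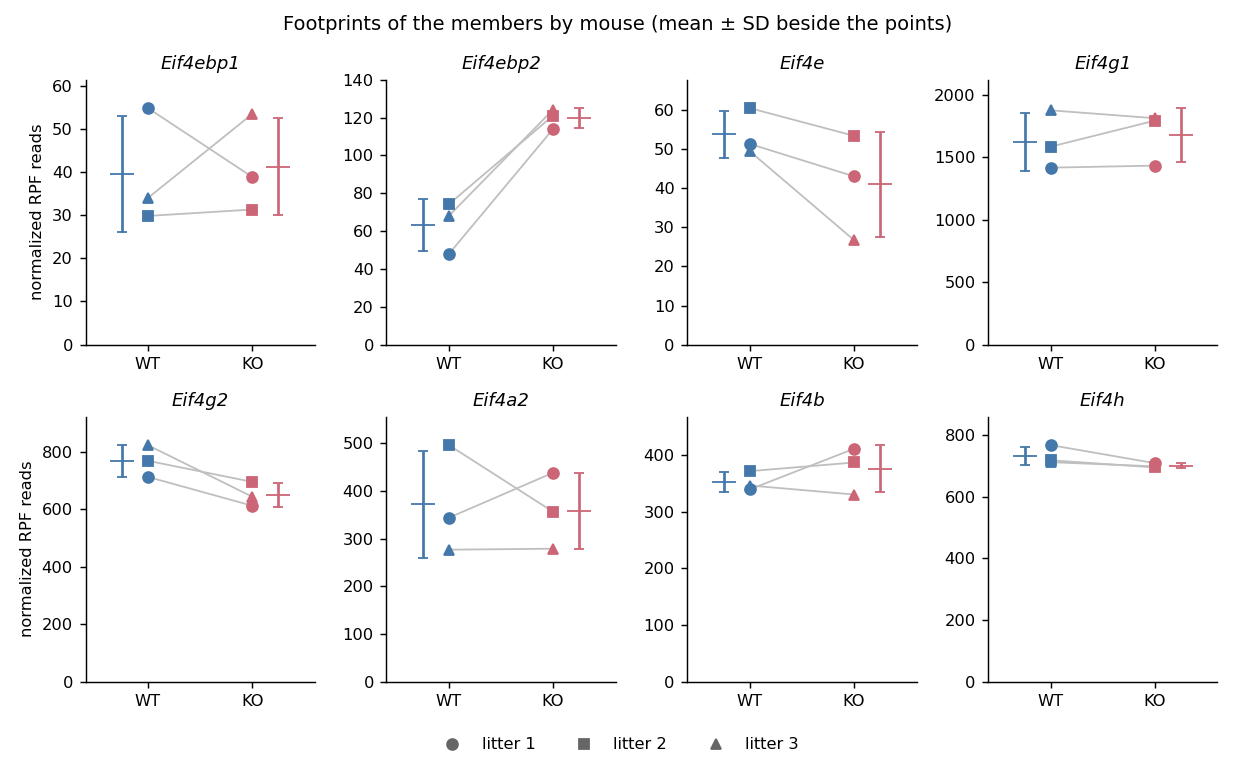
Normalized RPF reads (y axis, from 0) of the 8 members in the table, in WT (blue) and KO (red) livers; grey lines join littermates, marker shapes give the litter, and bars beside the points are mean ± SD (n = 3). The 3 Eif4ebp2 values of KO lie between 114.0 and 124, above the highest WT value of 74.2, and the other panels show smaller separations or crossing lines.

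Eif4ebp1, the 4E-BP that mTORC1 studies follow most often, did not show this footprint pattern. Eif4ebp1 (chr8:27260329-27276674, plus strand) had normalized RPF of 54.9, 29.9 and 34.0 in WT and 38.9, 31.4 and 53.5 in KO, and the genotypes overlapped (log2 difference 0.07, SE 0.28). Its normalized input was 69.7, 43.9 and 45.9 in WT and 31.6, 43.9 and 35.2 in KO. The 3 KO values were below the 3 WT values, but in litter 2 both values rounded to 43.9. The input log2 difference was −0.50 (SE 0.28, edgeR adjusted p = 0.999), and counts were low, 28 to 38 read pairs in WT and 22 to 48 in KO. The RPF-to-input ratio of Eif4ebp1 was 0.787, 0.680 and 0.742 in WT and 1.23, 0.715 and 1.52 in KO, and its TE log2 difference was 0.57 (SE 0.40). The KO liver of litter 2 lay within the WT range, and the TE difference was 0.88 without that liver and 0.34 without KO replicate 3.

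Eif4ebp3, the third repressor (chr18:36664060-36665917, plus strand), was close to the detection limit. Its input counts were 0, 5 and 0 in WT and 3, 0 and 0 in KO. A count of 0 allows up to 3 counts, which is 3.93 to 5.50 normalized reads in the 4 livers without a count, for counting error only. No fold is given, and a protein-coding gene overlaps it on the same strand, so even these counts are uncertain. Annotated snoRNA or miRNA genes overlap exons of Eif4e, Eif4g1, Eif4g2, Eif4a1 and Eif4a2 on the same strand, and their effect on the counts was not tested.

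eIF4E is the cap-binding subunit that the 4E-BPs hold. Eif4e (chr3:138526179-138559696, plus strand) had normalized RPF of 51.4, 60.6 and 49.5 in WT and 43.1, 53.5 and 26.8 in KO. The KO liver was lower in 3 of 3 litters, yet the genotypes overlapped, since KO litter 2 exceeded WT litters 1 and 3. The means were 53.8 ± 5.92 and 41.1 ± 13.5 (SD, n = 3), a log2 difference of −0.43 (SE 0.27), and the lowest KO value rested on 28 reads. Without that liver, KO replicate 3, the difference was −0.16. Its input overlapped, with 60.5, 67.4 and 111 normalized reads in WT and 66.4, 91.7 and 91.1 in KO (log2 difference 0.05, SE 0.25, edgeR adjusted p = 0.999). The TE log2 difference was −0.52 (SE 0.38), and it lay between −0.18 (without KO replicate 3) and −0.85 (without WT replicate 3) when single mice were left out.

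Because 4E-BPs and eIF4E pair directly, their footprints were set side by side per kb of coding sequence in each liver. Eif4ebp1 and Eif4ebp2 together had 3.67, 3.13 and 3.76 times the footprint density of Eif4e in WT and 6.46, 5.18 and 12.1 times in KO. No KO ratio reached down to the WT values, and the mean was 3.52 ± 0.34 in WT and 7.92 ± 3.68 in KO (SD, n = 3). The highest ratio belongs to the KO liver with 28 Eif4e reads. For transcripts per kb of exon the same ratio overlapped, at 23.5, 21.4 and 12.4 in WT and 24.0, 14.7 and 14.0 in KO. Eif4ebp2 alone against the scaffold Eif4g1 gave footprint ratios of 0.450, 0.624 and 0.483 in WT and 1.06, 0.899 and 0.913 in KO. These ratios include the Eif4ebp2 footprints that chose the group, and footprint density is not protein amount.

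eIF4G is the scaffold that bridges the cap to the ribosome. Eif4g1 (chr16:20668313-20692884, plus strand) had normalized RPF of 1418, 1587 and 1878 in WT and 1435, 1796 and 1815 in KO, and its log2 difference was 0.05 (SE 0.14). Its RPF-to-input ratio ran from 0.805 to 0.978 in all 6 livers. Its input log2 difference was −0.02 (SE 0.14, edgeR adjusted p = 0.999).

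Eif4g2 (chr7:111067750-111083030, minus strand), also called DAP5, encodes a relative of the scaffold that lacks the eIF4E-binding part and serves initiation without it. Its normalized RPF was 712, 768 and 822 in WT and 612, 695 and 643 in KO. The 3 KO values lay below the 3 WT values, with means of 767 ± 55.1 and 649.8 ± 41.9 (SD, n = 3) and a log2 difference of −0.24 (SE 0.13). Normalized input was 1361, 1381 and 1385 in WT and 1120, 1418 and 1078 in KO (log2 difference −0.17, SE 0.14, edgeR adjusted p = 0.999). Input was thus lower in KO in 2 of 3 litters, and the TE log2 difference was −0.04 (SE 0.19).

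eIF4A unwinds structure ahead of the scanning subunit. Eif4a2 (chr16:23107444-23114136, plus strand) varied widely between mice, with normalized RPF of 344, 497 and 277 in WT and 439, 356 and 279 in KO (log2 difference −0.04, SE 0.21). Its input was higher in KO in 3 of 3 litters, at 330.2, 420.0 and 379 in WT and 431, 568 and 390.2 in KO, but the genotypes overlapped and the log2 difference of 0.32 (SE 0.16) did not pass (edgeR adjusted p = 0.999). The TE log2 difference was −0.33 (SE 0.30). Eif4a1 (chr11:69666936-69672423, minus strand), its close paralog, had normalized input of 199.9, 219 and 261 in WT and 209, 233 and 249 in KO (log2 difference 0.04, SE 0.16, edgeR adjusted p = 0.999). Reads that map to several places were dropped from these counts, so levels of these paralogs, and of others with processed copies, are uncertain.

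eIF4B and eIF4H are cofactors that stimulate the helicase. Eif4b (chr15:102073773-102097173, plus strand) had normalized RPF of 339.8, 372 and 347 in WT and 411, 387 and 331 in KO (log2 difference 0.09, SE 0.14). Eif4h (chr5:134619721-134639490, minus strand) had 768, 718 and 712 in WT and 709, 695 and 699 in KO. The Eif4h values were all lower in KO, but the gap was narrow, with means of 733 ± 30.3 and 701 ± 7.17 (SD, n = 3) and a log2 difference of −0.06 (SE 0.13). Their input log2 differences were 0.19 (SE 0.14) for Eif4b and 0.07 (SE 0.15) for Eif4h, each with an edgeR adjusted p of 0.999. Their TE log2 differences were −0.07 (SE 0.19) and −0.12 (SE 0.19).

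**Figure D2:**
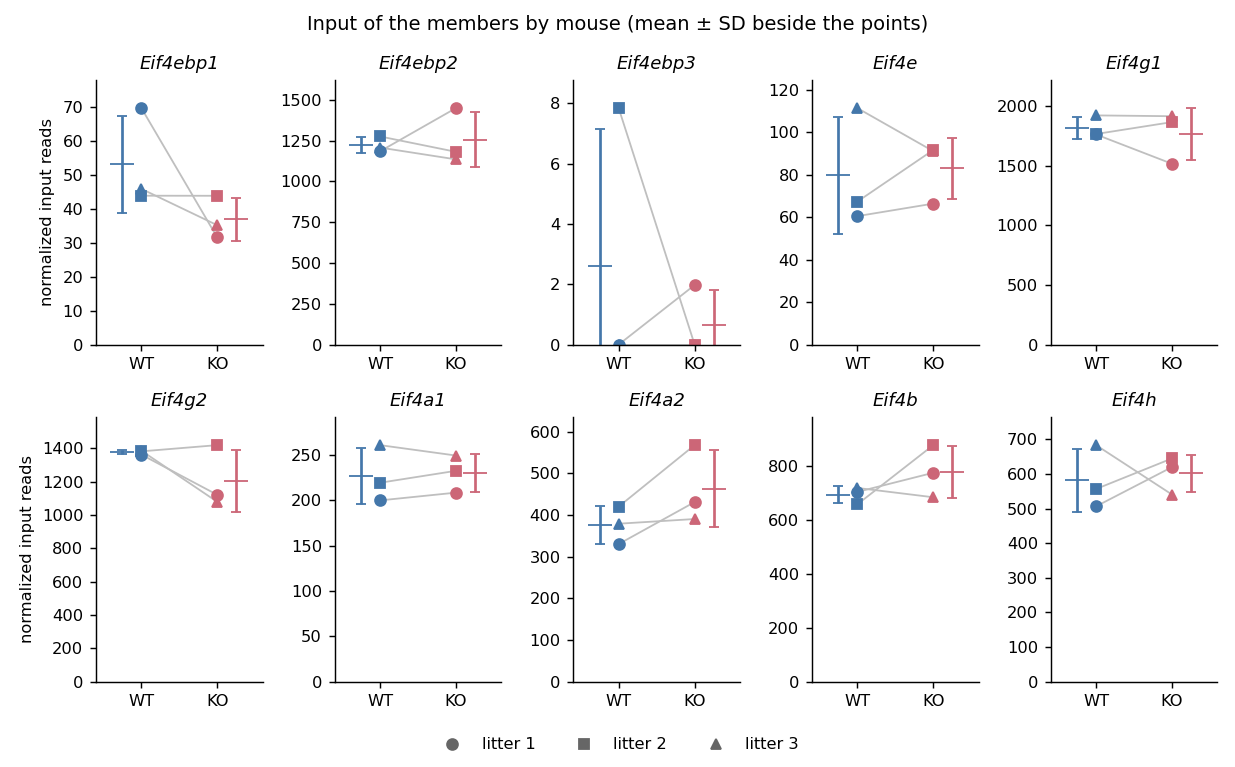
Normalized input reads (y axis, from 0) of all 10 members in WT (blue) and KO (red) livers, with littermates joined by grey lines and mean ± SD (n = 3) beside the points. Eif4ebp2 input lies between 1135 and 1450 in all 6 livers with the genotypes overlapping, and Eif4ebp3 has counts in 2 livers.

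Over the group, no input change was called. The deleted gene Mettl5 was not called in input either (log2 difference −1.59, SE 0.46, edgeR adjusted p = 0.999). The lack of a call therefore does not show that a transcript level was unchanged. Of the 8 members other than Eif4ebp2 that passed the count filter, 0 passed an edgeR adjusted p of 0.05 and 0 had an unadjusted p under 0.05, and DESeq2 gave 0 as well. Over all 10057 genes the same edgeR test called 0, or 0.0%, with 348 at an unadjusted p under 0.05, so the members' count matches the background. Over all genes this count was 0 to 21 when single mice were left out, with 21 without KO replicate 2, 5 without KO replicate 3 and 2 without WT replicate 3. The median input log2 difference of these 8 was 0.04 and that of all genes was 0.00. Without Eif4ebp2, the remaining 7 members in the table had RPF log2 differences from −0.43 to 0.09 with a median of −0.04, beside −0.03 for all genes tested.

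The RPF test called 44 of 8994 genes, or 0.489%, of which 15 were higher in KO (0.167%). Groups did not overlap in 3 of the 8 members (Eif4ebp2 higher, Eif4g2 and Eif4h lower), against 19.8% of all genes tested, and nothing is read from this count because the rule used the contrast. In input the groups were apart for Eif4ebp1 alone of the 8, against 9.25% of all genes tested. In the RPF-to-input ratio they were apart for Eif4ebp2 alone, against 13.4%. No gene of 8994 was called in TE (0.0%; 423 at an unadjusted p under 0.05 by limma), and edgeR on whole reads also called 0, while with litter as a block limma called 1 gene, higher in KO (607 at an unadjusted p under 0.05).

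**Figure D3:**
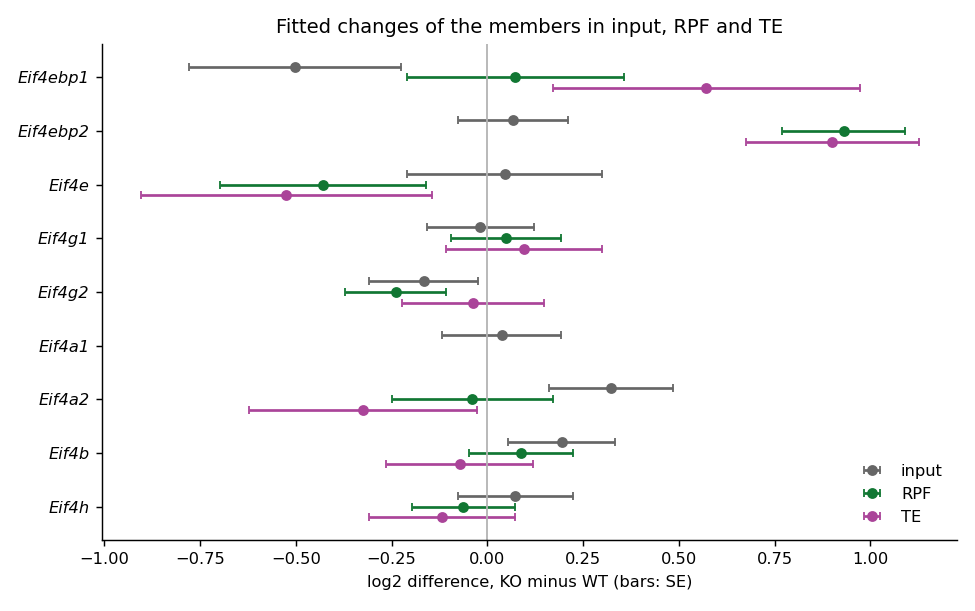
Fitted log2 differences, KO minus WT (x axis), of 9 members in input (grey), RPF (green) and TE (purple), with bars of 1 SE; Eif4a1 has input alone. Eif4ebp2 stands at 0.07 in input, 0.93 in RPF and 0.90 in TE, and every other RPF estimate lies between −0.43 and 0.09.

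Footprint differences in these livers varied with the base composition of the coding sequence, which bears on each member. Among genes within 2.5 percentage points of the 57.5% GC of Eif4ebp2 the median RPF log2 difference was 0.11 (n = 2283 genes), compared with −0.03 over all genes tested. After the trend with GC was removed from each library, Eif4ebp2 stood at 0.80 (SE 0.16). Eif4e, with 44.4% GC, moved from −0.43 to −0.22 (SE 0.27), and Eif4g2, with 45.0% GC, from −0.24 to −0.04 (SE 0.13). Eif4ebp1, with 62.7% GC, went from 0.07 to −0.20 (SE 0.28), and Eif4a2, with 43.5% GC, from −0.04 to 0.19 (SE 0.19), so the sign of both estimates turned. Those of Eif4e and Eif4g2 thus shrank by more than 1.5 times, and that of Eif4h went from −0.06 to −0.12. In TE the same correction left Eif4ebp2 at 0.77, took Eif4ebp1 from 0.57 to 0.31 and Eif4a2 from −0.33 to −0.16, and turned Eif4g2 from −0.04 to 0.11. The RPF calls over all genes numbered 13 after the correction.

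**Figure D4:**
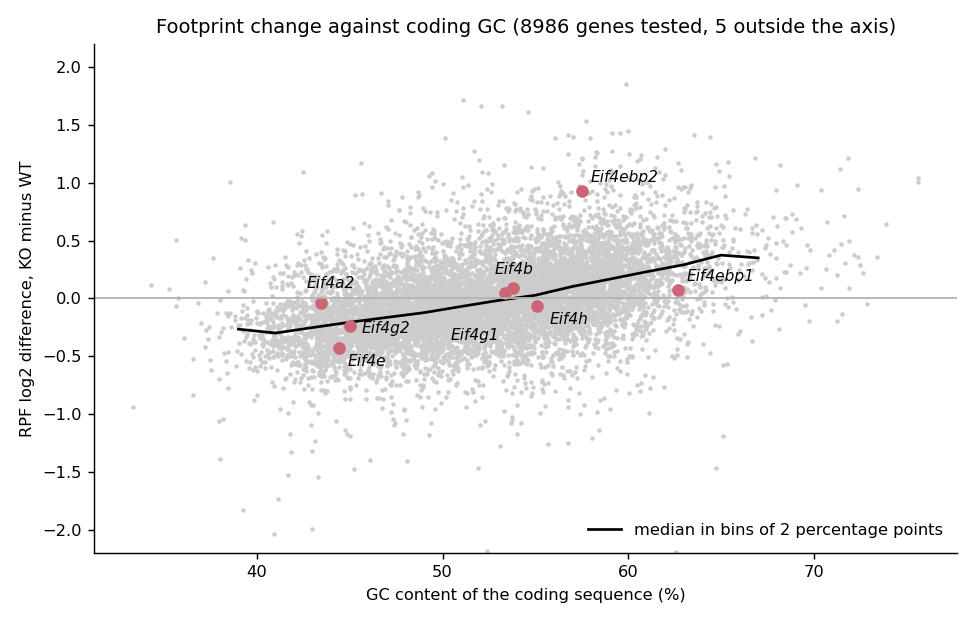
RPF log2 difference, KO minus WT (y axis), against GC content of the coding sequence in percent (x axis) for 8986 genes (grey; 5 lie outside the axis), with the median in bins of 2 percentage points (line) and the 8 members (red). The line runs from about −0.30 to 0.37, Eif4ebp2 lies well above it, and Eif4e, Eif4g2 and Eif4a2 sit where it is below 0.

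How heavily each transcript carried ribosomes in WT liver was measured with RPF per kb of coding sequence over input per kb of exon, on a log2 scale where the median gene has 0. The WT footprints of Eif4ebp2 are also one side of the contrast that chose the group, so its ratio is given without a test. Eif4ebp2 had the lowest ratio of the 8 members, at −2.19, −1.65 and −1.68 in WT litters 1, 2 and 3, and 5.70% of 8986 genes had a lower mean. In KO it was −1.23, −0.83 and −0.73, still below the median gene, and 19.2% of genes had a lower mean.

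Eif4h had the highest ratio, at 1.68 (SE 0.13, limma adjusted p = 1.01e-07), and Eif4e followed at 1.04 (SE 0.26, limma adjusted p = 0.00329). Below the median gene were Eif4b at −1.24 (SE 0.13, limma adjusted p = 2.09e-06), Eif4g1 at −1.12 (SE 0.15, limma adjusted p = 2e-05) and Eif4g2 at −0.50 (SE 0.13, limma adjusted p = 0.00491). Eif4ebp1 at 0.60 (SE 0.26, limma adjusted p = 0.0556) and Eif4a2 at 0.50 (SE 0.22, limma adjusted p = 0.0588) did not pass, and with litter as a block Eif4a2 did (limma adjusted p = 0.0211). With a pseudocount of 5, both passed (limma adjusted p = 0.0204 and 0.011), and Eif4g2 no longer did (limma adjusted p = 0.0719). Eif4a2 also passed without WT replicate 3 (limma adjusted p = 0.0417). The test thus called 5 of 7 members, where it called 62.2% of all genes tested, so the share is near the background. Input is counted over all exons, so a long UTR enters the input per kb and not the RPF per kb. The exon length also joins all annotated transcripts and can exceed that of a single mRNA. For Eif4h it was 5551 bases, while its longest coding transcript has 744 coding bases and UTRs of 191 and 1791 bases. Too long an exon length lowers input per kb and raises the ratio, and the p-values do not cover this. Without division by length, Eif4h and Eif4g1 no longer passed (0.26 and −0.25), nor did Eif4e, which turned to −0.59 (limma adjusted p = 0.0683), and Eif4ebp2 stood at −4.35.

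**Figure D5:**
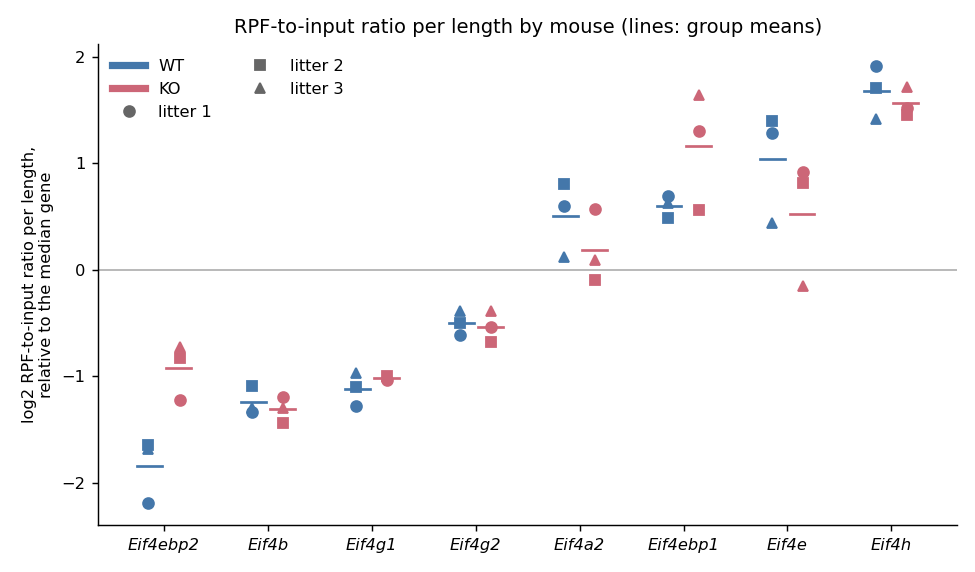
RPF-to-input ratio per length on a log2 scale relative to the median gene (y axis) for the 8 members, ordered by the WT mean, with 1 point for each WT (blue) and KO (red) liver, marker shapes for litters and lines for group means. Eif4ebp2 is lowest, with WT values from −2.19 to −1.65 and KO values from −1.23 to −0.73, and Eif4h is highest.

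The order of levels differed between transcript and footprint. Per kb of exon, WT input ran from Eif4g1 (249 ± 12.5, SD, n = 3) through Eif4ebp2 (211 ± 8.17), Eif4b (155 ± 7.06), Eif4g2 (135 ± 1.24), Eif4h (105 ± 16.4), Eif4a2 (70.5 ± 8.43), Eif4a1 (52.3 ± 7.19) and Eif4ebp1 (24.2 ± 6.54) to Eif4e (13.3 ± 4.60). No neighbours in that WT order overlapped except Eif4e with Eif4ebp3. On this scale the repressor Eif4ebp2 stood below Eif4g1 alone, and the cap binder was among the lowest. The exon length joins all annotated transcripts of a gene. For Eif4h, Eif4a1 and Eif4a2 it far exceeded the longest coding transcript, so their places in this order, and the gaps to their neighbours, depend on the length used.

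Per kb of coding sequence, WT footprints were densest on Eif4h (985 ± 40.8), which stood apart from the rest. Eif4g1 (339 ± 48.4), Eif4a2 (304 ± 91.9) and Eif4g2 (282 ± 20.3) followed, and each overlapped the next in this order. Eif4b (192 ± 9.26), Eif4ebp2 (176 ± 38.2), Eif4ebp1 (113 ± 38.2) and Eif4e (82.7 ± 9.09) formed a second run of overlapping neighbours, below Eif4g2. In KO, Eif4ebp2 stood at 333 ± 14.6, in the third place and overlapping Eif4g1 (350.4 ± 44.6) and Eif4a2 (293 ± 65.2).

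The rest of the pathway was read from 27 listed genes: cap-binding and scaffold relatives, poly(A)-binding partners, helicase regulators, eIF4E kinases, mTORC1 with its regulators, and its targets. In input 26 were tested and 0 passed the edgeR adjusted p of 0.05 in either direction (0 at an unadjusted p under 0.05). In RPF 25 were tested and 0 passed by limma (2 at an unadjusted p under 0.05, where 1205 of all 8994 genes were, smallest adjusted p = 0.344), and in TE 0 of 25 passed (0 at an unadjusted p under 0.05). Their median log2 differences were −0.05 in input, −0.05 in RPF and 0.08 in TE, beside 0.00, −0.03 and −0.01 for all genes tested.

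Mknk2, a kinase that phosphorylates eIF4E on the scaffold, had the largest RPF estimate of the list. Its normalized RPF was 36.6, 98.1 and 88.7 in WT and 75.8, 178 and 109.9 in KO, so KO was higher in 3 of 3 litters while the genotypes overlapped. Without a litter term the log2 difference was 0.73 (SE 0.42, limma adjusted p = 0.48), and with litter as a block it was 0.73 (SE 0.17, adjusted p = 0.0294). With that block the RPF test called 236 of 8994 genes, or 2.62%. With trends of coding GC content and length removed as well, it called 55 of 8986 genes, or 0.612%. The Mknk2 value of that fit is not given here. No other gene of the list passed in any contrast with the litter block alone.

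Paip1, which binds poly(A)-binding protein and supports initiation, had the next largest RPF estimate, with 255, 214 and 217 normalized reads in WT and 172, 180.1 and 162 in KO (log2 difference −0.41, SE 0.18, limma adjusted p = 0.344). In input the largest estimates were −0.54 (SE 0.35) for Tbc1d7, a subunit of the TSC complex that restrains mTORC1, and 0.38 (SE 0.33) for the S6 kinase gene Rps6kb2, each with an edgeR adjusted p of 0.999. In TE, after Mknk2 at 0.56 (SE 0.59), the largest was Mtor, the mTORC1 kinase itself, at 0.40 (SE 0.25), and both had an adjusted p of 0.998 by limma. The transcripts of mTORC1 and its regulators gave no call in any of the 3 measures. Over all genes tested, the same fits called 0 of 10057 in input, 44 of 8994 in RPF and 0 of 8994 in TE. With so few calls over all genes, nothing about the pathway is read from the absence of calls. Phosphorylation of the 4E-BPs was not measured here.

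Genes with the profile most like Eif4ebp2 were found by the root mean square difference over 12 libraries in log2(value + 1), after each gene's mean in input and in RPF was subtracted. The nearest of 8993 genes was Ptprs (0.163), a receptor tyrosine phosphatase, followed by Itgb5 (0.165), an integrin subunit, Abhd14b (0.165), Ccng2 (0.166), a cyclin G gene, and Etv3 (0.170), an ETS family transcription factor. The median difference over all genes was 0.462. Their RPF log2 differences ran from 0.56 for Itgb5 to 1.01 for Ptprs, and their input log2 differences from 0.00 for Etv3 to 0.25 for Ccng2. The choice used these same libraries, so higher footprints with near-level input follow from it and are a description. Ccng2 and Etv3 had few footprints, with WT means of 15.1 and 17.5 normalized reads. Abhd14b carried the most footprints of the 5, with means of 987 in WT and 1946 in KO.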

How the data were processed

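Ribosome profiling of 3 WT and 3 KO mouse livers gave 6 input and 6 RPF libraries. The deposited input counts are whole read pairs per gene over exons: per the labels and methods, the authors used BBDuk for trimming and STAR 2.7.3a for alignment to mm10, kept unique reads and counted them strand-specifically with featureCounts (1.6.0 in the notes, 2.0.3 in the file header). For RPF the authors removed rRNA reads and used RiboToolkit with a single mapping location and no duplicate removal. The signal in the deposited translation table is reads times 1 factor per library. The design assumed RPKM, but no length enters: 100% of values were whole reads (tolerance 0.01 reads), and input reads equalled the counts in 100% of genes. The authors' own log2 fold change, p-value and adjusted p-value of TE in that table were not used. 16 gene symbols in it had become dates and were renamed by identifier.

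Groups came from the labels, which covered every library column. Input was tested with edgeR 4.0.16 (R 4.3.3; TMM, filterByExpr, quasi-likelihood). RPF, TE and the WT ratio were fitted with limma 3.58.1 (trend, robust) with 4 group means on log2(value + 1), for genes whose mean reached 10 in input and in RPF. Fold changes on this scale understate changes of low genes. Adjusted p-values are Benjamini-Hochberg over all genes tested, two-sided. edgeR on the recovered whole reads called 20 genes in RPF. Input of genes outside the table was scaled with the same factors. Coding lengths and GC content came from the longest coding sequence per gene in GENCODE (GRCm38), found for 10597 of 10607 genes. Start windows of the members came from the longest coding transcript with at least 12 bases before the start codon. The 10356 genes set beside them used their longest coding transcript, if it began at ATG after at least 3 bases. For Eif4a2 the rules differ, since its longest coding transcript has 0 bases of 5′ UTR.

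Shared numbers mark littermates. Deviations from group means correlated across genes at 0.082 to 0.127 (input) and 0.144 to 0.242 (RPF) between littermates, and at −0.117 to 0.017 and −0.239 to 0.081 between other WT and KO pairs. Such deviations cancel within each genotype, so positive values between littermates force low ones in other pairs. The ranges are therefore not independent. No litter term is described in the methods of the study, and the fit without one comes first.

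The members, the 27 pathway genes, the marker lists and the tests were chosen with earlier results of these data known. All members are named, with Mettl5, every pathway gene past an adjusted p of 0.05, the 2 with the largest change in each contrast, and the 5 genes nearest to Eif4ebp2. Alternatives were RLE factors, DESeq2 1.42.0, columns centred on their median, pseudocounts of 0.1 and 5, looser and stricter filters, removal of rRNA genes and Lars2 from library sizes, GC and length trends removed, blocks of litter or mouse, edgeR on whole reads and leaving out each mouse. The fits were also run on simulated counts without litter effects or GC trends, and with a pseudocount of 0.1 for the WT ratio. That run does not measure their error in these data.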

Additional observations from a re-analysis of the deposited data

How the results depend on the processing

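Of 447 repeats over 35 results, 418 gave the same call and direction or, for untested values, a shift within the SD between mice. The Eif4ebp2 RPF difference ranged from 0.74 to 1.05 and its TE difference from 0.74 to 1.04 over 16 alternatives each, leaving out single mice included (the same ranges). The count of members called in input was 0 without each mouse. In the WT ratio, the members called were 5 to 6 of 7 without single mice and 2 without division by length. The median WT ratio over 8 members was 0.00, ranged from −0.07 to 0.02 without single mice, and was 0.20 with a pseudocount of 5, −1.02 with a mean of at least 50 and −0.55 without division by length, since the members stand on both sides of 0.

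Small input differences changed sign without single mice, ranging from −0.11 to 0.38 for Eif4e (negative without WT 1, WT 2, KO 2 or KO 3), −0.074 to 0.077 for Eif4g1 (positive without WT 3 or KO 1), −0.043 to 0.15 for Eif4a1 (negative without WT 1 or KO 3) and −0.017 to 0.20 for Eif4h (negative without WT 1). Signs also turned in RPF for Eif4a2 (−0.23 to 0.19), Eif4ebp1 (−0.13 to 0.33) and Eif4g1 (−0.046 to 0.16), and in TE for Eif4b (−0.14 to 0.0037), Eif4g2 (−0.11 to 0.036) and Eif4h (−0.26 to 0.010). Without division by length the WT ratio reversed for Eif4ebp1 (−0.51), Eif4e (−0.59) and Eif4a2 (−0.13), and that of Eif4ebp2 moved to −4.35. That division uses exon and coding lengths, such as 5784 and 360 bases for Eif4ebp2 and 6008 and 651 bases for Eif4e. The shifts in the WT ratio are thus set by the lengths. The cause of the sign changes without single mice was not tested.

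The count of RPF calls over all genes, 44, was 0 without KO 2, 226 without KO 1, 11 without KO 3, 28 without WT 1, 9 without WT 2 and 16 without WT 3, and was 236 with the litter block and 23 from RPF columns alone. The input count, 0, was 21 without KO 2, 5 without KO 3, 2 without WT 3, 2 with the block, 30 with no count filter and 1 by DESeq2. Beyond Mknk2 in RPF and Eif4a2 in the WT ratio, that block changed no other call among the tested members and the 27 pathway genes, and the Eif4ebp2 RPF difference with it was 0.93. The 28 reads behind the lowest Eif4e footprint value and the 22 to 48 read pairs of Eif4ebp1 input limit what can be seen for these 2 genes.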
